A study of Mus musculus with 16 samples.

Results

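Transcripts of 10 unfolded protein response genes were followed through mouse epidermis that carried or lacked the transcription factor C/EBPβ, with and without ultraviolet B (UVB). The genes were Hspa5, Dnajb9, Xbp1, Atf4, Herpud1, Sdf2l1, Hyou1, Pdia4, Creld2 and Trib3, chosen by name, and each matched 1 of the 49585 Ensembl gene rows of the deposited count table. All 10 passed the filter on low counts, which kept 17741 genes. Epidermis, separated by a heat shock step in every group, came from SKH-1 mice, a hairless stock, aged 8 to 12 weeks. The 4 groups of 4 libraries were K5Cre control mice left unexposed, K5Cre controls collected 6 h after 100 mJ/cm2 of UVB, mice with an epidermis-specific C/EBPβ knockout left unexposed, and knockouts collected 6 h after the same dose. K5Cre is a recombinase under the keratin 5 promoter, which is active in basal keratinocytes; the labels name neither the deleted allele nor the Cre line of the knockouts. Whether each library comes from its own animal is not stated in the labels, so the p-values here reflect only how far these libraries spread, which may be technical.

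The unfolded protein response is the set of signals that a cell sends when unfolded proteins gather in the endoplasmic reticulum (ER). The sensor IRE1 splices the Xbp1 transcript into its active form, the sensor ATF6 is cut free to enter the nucleus, and the sensor PERK phosphorylates eIF2α, which slows translation in general while raising that of Atf4. Spliced XBP1 and ATF6 drive genes for ER chaperones and for the degradation of misfolded ER proteins, and ATF4 drives genes of amino acid supply and stress signalling. In skin, keratinocytes use this machinery as they differentiate and secrete lipids and proteins. Counts per gene show neither Xbp1 splicing nor Atf4 translation, so the activity of these factors was not measured here.

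Many ER stress genes carry known promoter elements, so the sequence before the RefSeq start (GRCm38.p6) is shown for the 3 genes with an exact match to an ER stress element and for Dnajb9, the gene with the largest change after UVB. Each run is the 200 bases upstream, on the gene's own strand, with the fixed letters of matches in capitals. The elements searched on both strands of each 300-base window (250 before to 50 after the start) were the ER stress element ERSE (CCAAT and CCACG with any 9 bases between them), ERSE-II (ATTGG and CCACG with any 1 base between them), the XBP1-linked UPRE (TGACGTGG) and the ATF4-linked amino acid response element (TGATGNAA). No 2 of the printed matches overlap. The RefSeq starts can differ from the ends of the GENCODE gene coordinates given further on. By those coordinates the whole Dnajb9 run lies inside its gene, as does most of the Hspa5 run with its ERSE. Which letters count as upstream thus depends on the start used.
Hspa5, chr2:34771890-34772089 (+): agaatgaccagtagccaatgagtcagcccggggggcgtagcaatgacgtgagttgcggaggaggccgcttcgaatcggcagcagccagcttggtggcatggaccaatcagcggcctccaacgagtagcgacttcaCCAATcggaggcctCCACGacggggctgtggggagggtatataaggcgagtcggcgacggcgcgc
Creld2, chr15:88819446-88819645 (+): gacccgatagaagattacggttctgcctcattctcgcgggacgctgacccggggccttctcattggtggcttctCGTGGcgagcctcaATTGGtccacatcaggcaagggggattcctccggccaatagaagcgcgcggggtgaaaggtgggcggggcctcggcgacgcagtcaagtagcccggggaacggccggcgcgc
Herpud1, chr8:94386229-94386428 (+): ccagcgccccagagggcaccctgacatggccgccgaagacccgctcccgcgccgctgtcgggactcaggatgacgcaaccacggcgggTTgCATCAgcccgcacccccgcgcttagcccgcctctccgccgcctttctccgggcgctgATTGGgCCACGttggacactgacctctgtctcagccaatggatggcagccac
Dnajb9, chr12:44210069-44210268 (-): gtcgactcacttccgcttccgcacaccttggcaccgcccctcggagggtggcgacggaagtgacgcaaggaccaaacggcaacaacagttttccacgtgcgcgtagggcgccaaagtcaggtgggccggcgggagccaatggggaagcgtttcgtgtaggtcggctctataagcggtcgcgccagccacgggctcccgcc

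Of the 10 genes, 9 had a window in the RefSeq table. Hspa5 held an ERSE at bases -65 to -47 from the start, and Creld2 held one on the opposite strand at -126 to -108, whereas 0.119% of all 32851 windows held one. Herpud1 held an ERSE-II at -52 to -42, found in 0.0365% of windows, and an amino acid response element on the opposite strand at -112 to -105, found in 3.97%. Trib3 held an amino acid response element on the opposite strand at bases 15 to 22 after the start. No window of the 9 genes held the UPRE as spelled here, which 0.676% of all windows did. With 1 mismatch allowed in the fixed letters of the ERSE, Herpud1 and Pdia4 also matched, and 1.5% of all windows did. A match describes letters in a window and shows no binding.

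The deletion and the tissue were checked first. Cebpb stood at 166 ± 13.7 CPM in unexposed and 291 ± 28.6 CPM in exposed controls, and at 0.574 ± 0.297 CPM and 1.93 ± 1.07 CPM in the matching knockouts (CPM is the count scaled to library size with TMM factors; mean ± SD, n = 4 throughout). Library totals were 32983160 to 53255160 counts. Suprabasal keratinocyte markers (Krt1, Krt10, Lor, Flg and Ivl) summed to 30500 to 67000 CPM per library. Basal markers (Krt5, Krt14, Krt15, Col17a1 and Itga6) summed to 1560 to 3690 CPM in controls and 2370 to 6210 CPM in knockouts. Fibroblast markers reached at most 10 CPM in a library, endothelial markers 9.12 CPM and skeletal muscle markers 1.22 CPM. Mitochondrial transcripts took 8.57%, 9.59% and 9.65% of the counts in exposed control libraries 1, 3 and 4, against 5.24% in exposed control library 2 and 5.44% to 5.99% in the exposed knockouts. Among unexposed libraries the share was highest in knockout library 4, at 10.2%, and control library 3, at 8.57%, and 4.33% to 6.21% in the other 6. At equal depth the exposed controls had 16976 to 19318 genes detected, against 19198 to 21534 for the exposed knockouts. Because these are bulk samples, fewer cells of a type and less RNA per cell cannot be told apart.

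Per kilobase of exon, the 10 genes covered a wide range in unexposed control epidermis. Atf4 was highest at 61.4 ± 1.79 CPM per kb, followed by Xbp1 at 46.9 ± 2.12, Hspa5 at 34.1 ± 2.66 and Herpud1 at 24.9 ± 3.20, and none of these 4 overlapped its neighbour in any library. Creld2 followed at 14.7 ± 3.06 CPM per kb, and from there down each gene overlapped the next: Trib3 at 9.20 ± 3.55, Pdia4 at 7.95 ± 1.82, Dnajb9 at 6.05 ± 0.628, Hyou1 at 5.05 ± 0.586 and Sdf2l1 at 4.91 ± 1.13. In exposed controls Hspa5 followed Atf4, at 105 ± 15 CPM per kb, and Dnajb9 came after Xbp1, at 47.3 ± 7.65; libraries of Hspa5 and Xbp1, and of Xbp1 and Dnajb9, overlapped. In exposed knockouts Hspa5, Xbp1 and Dnajb9 held the same places behind Atf4, at 91.4 ± 20.5, 69.6 ± 11.3 and 42.4 ± 11 CPM per kb. Sdf2l1 had 20 to 416 counts per library, and the other 9 genes had 345 or more in each.

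**Figure D1:**
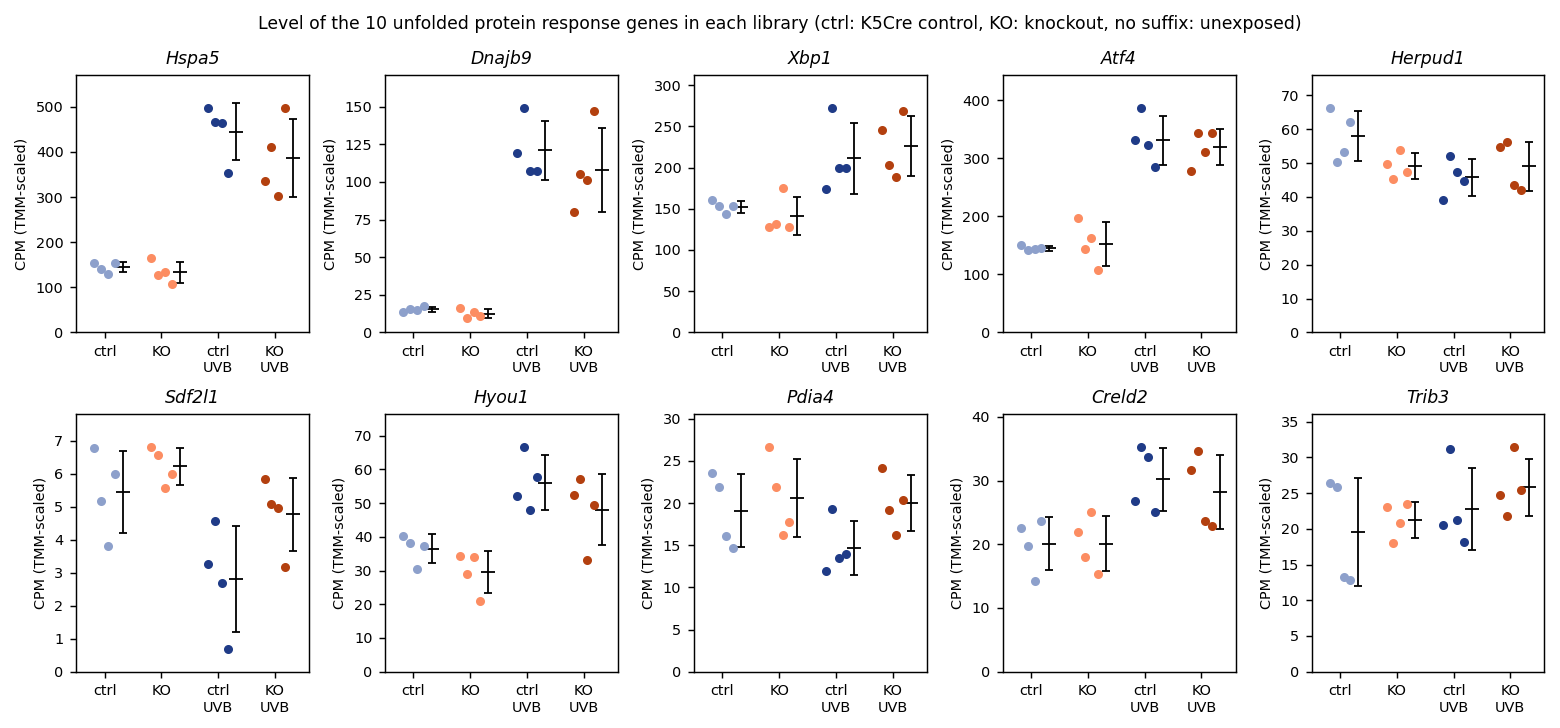
CPM of each of the 10 genes in every library (points), with the group mean and SD (bar) to the right, each panel from 0 on its own linear scale. Dnajb9 stood at 9.34 to 17.4 CPM in unexposed and 79.8 to 149 CPM in exposed libraries, whereas Pdia4 and Trib3 overlapped between exposed and unexposed libraries.

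The 10 genes changed unevenly after UVB. In control epidermis 6 of the 10 genes rose 6 h after UVB (Dnajb9, Hspa5, Atf4, Hyou1, Creld2 and Xbp1), 0 fell and 4 did not pass, at an edgeR adjusted p under 0.05. Of all 17741 genes tested, 35.8% passed in either direction, 17.7% higher and 18% lower, and among genes spanning at most 20 kb, as all 10 do, 23.2% were higher and 9.0% lower. In knockout epidermis 5 of the 10 rose (the same genes without Creld2), 0 fell and 5 did not pass, beside 32.2% of all genes passing, 18.1% higher and 14.1% lower, and 24.5% and 4.68% among those of at most 20 kb. The median log2 fold change of the 10 genes was 0.53 in controls and 0.59 in knockouts. It was -0.02 and 0.01 for all genes, and 0.23 and 0.31 for those of at most 20 kb. The 20 kb span was chosen after the data were seen. Without exposed control library 2, the control counts were 3 rises (Dnajb9, Hspa5 and Atf4) and 3 falls (Herpud1, Sdf2l1 and Pdia4).

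Dnajb9 (ENSMUSG00000014905, chr12:44205559-44210326, GRCm38), which encodes the ER co-chaperone ERdj4 of the Hsp70 system, had the largest change. Unexposed control libraries 1 to 4 read 13.6, 15.7, 14.9 and 17.4 CPM, and exposed control libraries read 119, 149, 107 and 107 CPM. Unexposed knockout libraries read 16.3, 9.34, 13.7 and 10.8 CPM, and exposed knockout libraries read 79.8, 105, 101 and 147 CPM. In both genotypes the lowest exposed library lay far above the highest unexposed one. Dnajb9 rose 7.82-fold in controls (log2 fold change 2.97, SE 0.20, edgeR adjusted p = 1.32e-09) and 8.63-fold in knockouts (3.11, SE 0.20, adjusted p = 3.46e-09). Only 2.7% and 1.71% of the tested genes had a larger log2 fold change in the respective genotype.

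Hspa5 (ENSMUSG00000026864, chr2:34771970-34777547, GRCm38) encodes BiP, the main Hsp70 chaperone of the ER, which binds unfolded proteins and holds the sensors inactive. Its level was 154, 141, 130 and 153 CPM in unexposed controls and 497, 466, 464 and 353 CPM in exposed ones. Knockouts read 165, 128, 133 and 107 CPM unexposed and 336, 410, 302 and 497 CPM after UVB. Every exposed library was above every unexposed one, and the spread between exposed libraries was wider in knockouts (SD 86.6 CPM) than in controls (SD 63.5 CPM), a difference that was not tested. Hspa5 rose 3.08-fold in controls (log2 fold change 1.62, SE 0.16, edgeR adjusted p = 2.03e-07) and 2.90-fold in knockouts (1.54, SE 0.16, adjusted p = 6.68e-07).

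The other chaperone genes that rose did so by less. Hyou1 (ENSMUSG00000032115, chr9:44379490-44392369, GRCm38) encodes an Hsp110-type ER chaperone that acts as an exchange factor for BiP. Control libraries read 40.1, 38.3, 30.4 and 37.3 CPM unexposed and 52.0, 66.5, 48.0 and 57.8 CPM exposed, with no overlap. Knockout libraries read 34.4, 29.1, 34.0 and 21 CPM unexposed and 52.4, 57.1, 33.0 and 49.4 CPM exposed, where exposed library 3 fell within the unexposed range. Hyou1 rose 1.53-fold in controls (SE 0.18 on the log2 scale, edgeR adjusted p = 0.00910) and 1.62-fold in knockouts (SE 0.18, adjusted p = 0.00421). The control call ended without exposed control library 2 (log2 fold change 0.46, adjusted p = 0.0611).

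Creld2 (ENSMUSG00000023272, chr15:88819646-88826683, GRCm38), a secreted ER stress protein with disulphide isomerase activity, read 22.5, 19.8, 14.3 and 23.6 CPM in unexposed controls and 26.8, 35.2, 33.7 and 25.1 CPM in exposed ones. In knockouts it read 22.0, 18, 25.1 and 15.3 CPM unexposed and 31.7, 34.6, 23.7 and 22.9 CPM exposed. The control groups did not overlap, and the knockout groups did. Creld2 rose 1.5-fold in controls (log2 fold change 0.59, SE 0.19, edgeR adjusted p = 0.0216), and its 1.40-fold higher mean in knockouts did not pass (0.49, SE 0.19, adjusted p = 0.0577). The control call ended without unexposed control library 2 or 3, without exposed control library 2 or 3, or without the count filter (adjusted p = 0.0510, 0.0862, 0.105, 0.0541 and 0.0530), and a knockout call appeared without unexposed or exposed knockout library 3 (0.0305 and 0.0456).

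The transcription factor genes of the IRE1 and PERK branches both rose. Atf4 (ENSMUSG00000042406, chr15:80255184-80257541, GRCm38) read 151, 141, 144 and 145 CPM in unexposed controls, a coefficient of variation of 2.92%, and 331, 386, 323 and 284 CPM in exposed ones. Knockouts read 197, 143, 162 and 107 CPM unexposed and 278, 343, 311 and 344 CPM exposed. The groups did not overlap in either genotype, and unexposed knockouts were more scattered than unexposed controls (24.6% against 2.92%), which was not tested. Atf4 rose 2.28-fold in controls (log2 fold change 1.19, SE 0.15, edgeR adjusted p = 3.12e-06) and 2.09-fold in knockouts (1.07, SE 0.15, adjusted p = 1.5e-05).

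Xbp1 (ENSMUSG00000020484, chr11:5520659-5525893, GRCm38), whose total transcript is counted here whether spliced or not, read 160, 153, 144 and 153 CPM in unexposed controls and 174, 272, 199 and 200 CPM in exposed ones. In knockouts the 4 unexposed libraries read 128, 131, 175 and 128 CPM and those after UVB 245, 203, 189 and 268 CPM. Neither genotype showed overlap, but in controls the gap was only that between 160 and 174 CPM. Xbp1 rose 1.39-fold in controls (SE 0.15 on the log2 scale, edgeR adjusted p = 0.0164) and 1.61-fold in knockouts (SE 0.15, adjusted p = 0.00109). The control call ended without exposed control library 2 (log2 fold change 0.26 in place of 0.47, adjusted p = 0.164) and without unexposed control library 3 (adjusted p = 0.0548).

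**Figure D2:**
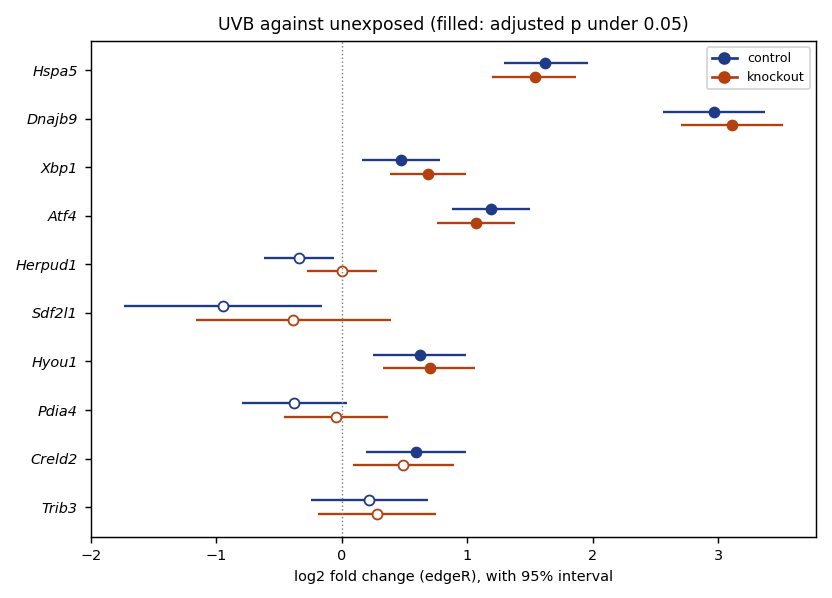
Log2 fold change after UVB for each gene in control and knockout epidermis (points, edgeR), with 95% intervals (lines), filled where the adjusted p was under 0.05. Dnajb9, Hspa5 and Atf4 lie above 1 in both genotypes, while Herpud1, Sdf2l1, Pdia4 and Trib3 have open points in both.

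Herpud1, Sdf2l1, Pdia4 and Trib3 passed in neither direction. Herpud1 (ENSMUSG00000031770, chr8:94386438-94395377, GRCm38), a membrane protein of the ER degradation machinery, read 66.2, 50.2, 53.4 and 62.2 CPM in unexposed and 39.0, 52.1, 47.5 and 44.6 CPM in exposed controls. Knockouts read 49.8, 45.2, 53.9 and 47.4 CPM unexposed and 54.6, 56.1, 43.5 and 41.9 CPM exposed. The groups overlapped in both genotypes, and the log2 difference was -0.34 in controls (SE 0.14, edgeR adjusted p = 0.0557) and -0.00083 in knockouts (SE 0.13, adjusted p = 0.998). The control difference passed as a fall under 6 of 14 alternatives, among them RLE scaling, upper-quartile scaling and DESeq2 (adjusted p = 0.0486, 0.0279 and 0.0348), and without exposed control library 2 (0.0154) or unexposed control library 2 (0.0406). The 95% interval in knockouts ran from -0.28 to 0.28, which leaves out a rise of the size seen for Hspa5.

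Sdf2l1 (ENSMUSG00000022769, chr16:17130138-17132383, GRCm38), which works with BiP and its J-domain partners in the ER, had the lowest counts. Unexposed controls read 6.76, 5.18, 3.82 and 5.99 CPM and exposed controls 3.27, 4.55, 2.68 and 0.695 CPM, the last resting on 20 counts. Knockouts read 6.79, 6.55, 5.55 and 6.0 CPM unexposed and 5.82, 5.09, 4.95 and 3.18 CPM exposed. No exposed mean was above its unexposed one, and the control libraries overlapped. The log2 difference was -0.95 in controls (SE 0.38, edgeR adjusted p = 0.0554) and -0.39 in knockouts (SE 0.37, adjusted p = 0.493). In controls the difference passed as a fall under 6 of 14 alternatives, including upper-quartile scaling, DESeq2 and limma voom (adjusted p = 0.0459, 0.0326 and 0.0384), and it passed without exposed control library 2 (0.0122) or unexposed control library 3 (0.0450). Without exposed control library 4 it was -0.64.

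Pdia4 (ENSMUSG00000025823, chr6:47796141-47813430, GRCm38), a protein disulphide isomerase of the ER, read 23.6, 21.9, 16.1 and 14.7 CPM in unexposed and 11.9, 19.3, 13.5 and 14 CPM in exposed controls. In knockouts it read 26.6, 21.9, 16.2 and 17.8 CPM unexposed and 24.2, 19.2, 16.2 and 20.4 CPM exposed, close to complete overlap. The log2 difference was -0.38 in controls (SE 0.20, 95% interval -0.80 to 0.04, edgeR adjusted p = 0.161) and -0.05 in knockouts (SE 0.20, interval -0.46 to 0.37, adjusted p = 0.905). It passed as a fall in controls only without exposed control library 2 (log2 fold change -0.60, adjusted p = 0.0334).

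Trib3 (ENSMUSG00000032715, chr2:152337422-152344032, GRCm38), a pseudokinase that ATF4 and CHOP induce and that binds AKT, split into pairs in unexposed controls, at 26.4 and 25.8 CPM in libraries 1 and 2 and 13.2 and 12.9 CPM in libraries 3 and 4. Exposed controls read 20.5, 31.2, 21.2 and 18.2 CPM. Knockouts read 23.1, 18, 20.8 and 23.5 CPM unexposed and 24.7, 21.8, 31.4 and 25.5 CPM exposed. The groups overlapped in both genotypes, with log2 differences of 0.22 (SE 0.23, 95% interval -0.25 to 0.69, edgeR adjusted p = 0.496) and 0.28 (SE 0.23, interval -0.19 to 0.75, adjusted p = 0.405). Both intervals exclude a change as large as that of Atf4 in the same genotype (1.19 and 1.07).

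Libraries moved several of these genes together. Exposed control library 2, with the lowest mitochondrial share of its group, held the highest value of 9 of the 10 genes, the exception being Hspa5, and exposed control library 4 held the lowest of 6. Among unexposed controls, library 1 was highest for 8 and library 3 lowest for 5, and unexposed knockout library 4 was lowest for 4 in its group. The latter 2, with the highest mitochondrial shares of their groups, also had the lowest mean standardized level over the 8 genes other than Atf4 and Trib3, at -0.74 and -0.94 SD units. In exposed knockouts the shares lay close together, from 5.44% to 5.99%. Their library 3 had the lowest share and the lowest mean level (-0.05). Their libraries 1, 2 and 4, with shares of 5.98%, 5.68% and 5.99%, stood at 0.85, 0.77 and 0.40. After subtracting each group's mean, 44 of the 45 pairs of genes had a positive Pearson correlation of log2 level over the 16 libraries, with a median of 0.32. Herpud1 with Creld2 was highest at 0.79, followed by Hspa5 with Atf4 at 0.75 and Dnajb9 with Atf4 at 0.70, and Dnajb9 with Herpud1 was lowest at -0.06. These values are a description over libraries that share their scaling and RNA quality, and the part of the mitochondrial share in them was not tested. Pairs of other genes were not counted in the same way, so the count of positive pairs is not shown to be particular to these 10 genes.

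**Figure D3:**
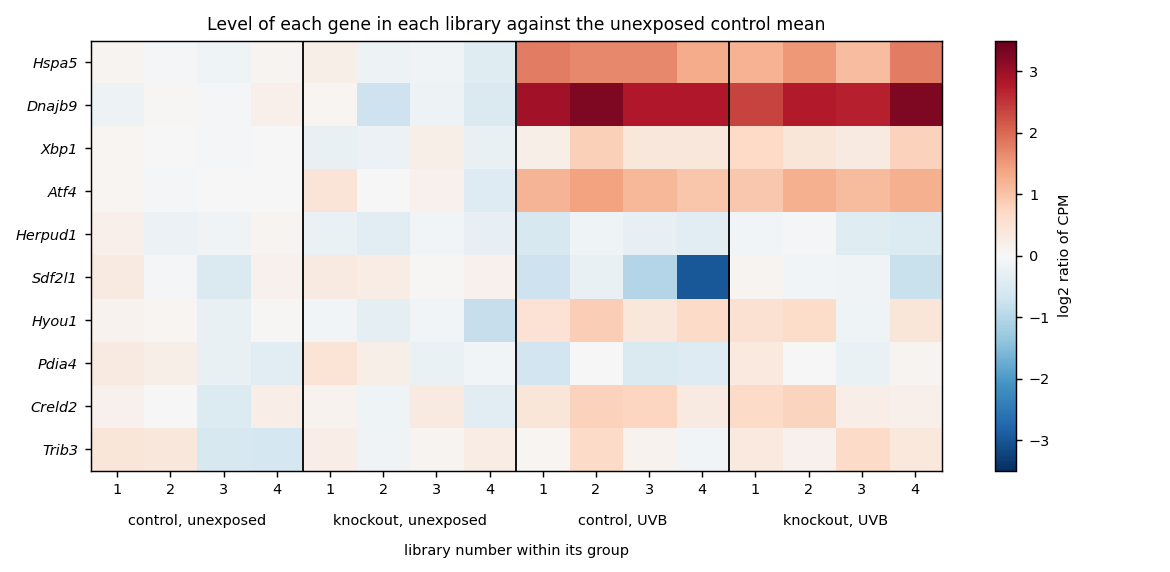
Log2 ratio of each gene's CPM in each of the 16 libraries (columns, by group) to its mean in unexposed controls, with red above and blue below. Dnajb9 and Hspa5 are red in all 8 exposed libraries, and Sdf2l1 is darkest blue in exposed control library 4.

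No difference between the genotypes passed for any of the 10 genes. In unexposed epidermis 0 of the 10 passed in either direction at an edgeR adjusted p under 0.05, beside 2.1% of all genes tested (0.964% higher and 1.14% lower), and 0 had an unadjusted p under 0.05. DESeq2 and limma voom also called 0, with 0 at an unadjusted p under 0.05. Log2 fold changes of knockout against control ran from -0.30 for Hyou1 (95% interval -0.67 to 0.06) and Dnajb9 (-0.68 to 0.08) to 0.19 for Sdf2l1 (-0.58 to 0.97), with a median of -0.06 against 0.00 for all genes. For Hspa5, at 144 ± 11.2 CPM in controls and 133 ± 23.8 CPM in knockouts, the interval ran from -0.44 to 0.21. For Atf4, at 145 ± 4.23 and 152 ± 37.5 CPM, it ran from -0.23 to 0.38, and for Creld2, at 20.1 ± 4.18 and 20.1 ± 4.29 CPM, from -0.40 to 0.40.

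After UVB 0 of the 10 genes differed between knockout and control by the same test, beside 4.68% of all genes (2.36% higher and 2.32% lower), and DESeq2 and limma voom called 0. Pdia4 was the 1 gene with an unadjusted p under 0.05 in edgeR: its mean was 20 ± 3.28 CPM in exposed knockouts and 14.7 ± 3.19 CPM in exposed controls (log2 fold change 0.45, SE 0.20, adjusted p = 0.218). Sdf2l1 had the widest interval, with 4.76 ± 1.12 CPM in knockouts and 2.80 ± 1.61 CPM in controls (log2 fold change 0.76, 95% interval -0.03 to 1.54, edgeR adjusted p = 0.266). Hspa5 (-0.53 to 0.12), Dnajb9 (-0.53 to 0.22), Xbp1 (-0.21 to 0.41) and Atf4 (-0.36 to 0.25) had intervals on both sides of 0. Hyou1 (-0.59 to 0.14), Creld2 (-0.50 to 0.30), Herpud1 (-0.18 to 0.38) and Trib3 (-0.29 to 0.65) did as well.

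**Figure D4:**
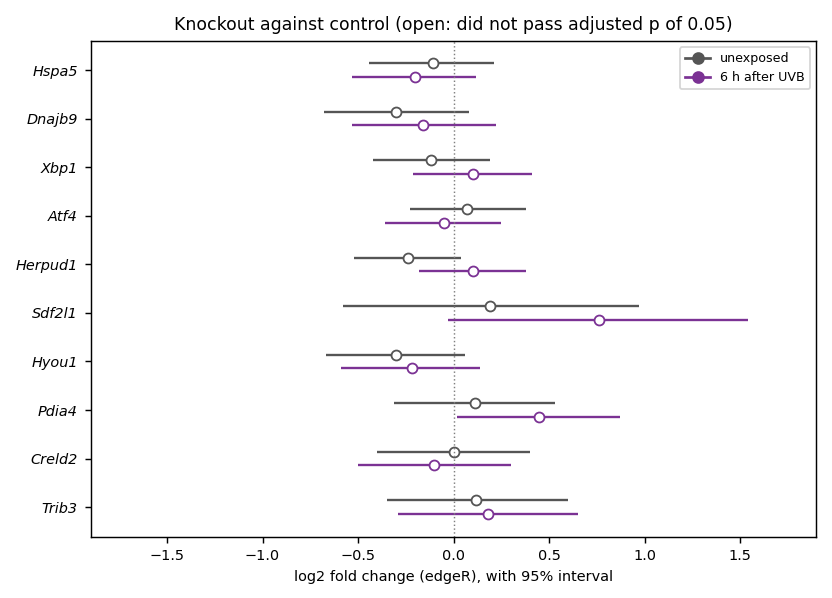
Log2 fold change of knockout against control for each gene, unexposed and 6 h after UVB (points, edgeR), with 95% intervals (lines). All 20 points are open because none passed an adjusted p of 0.05, and Sdf2l1 has the widest intervals.

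The UVB responses themselves were compared between genotypes. The difference was called for 0 of the 10 genes, beside 0.0% of all genes tested by edgeR, where 0 of the 10 and 1043 of all genes had an unadjusted p under 0.05. DESeq2 called 58 of all genes and 0 of the 10. The log2 differences of knockout minus control response ran from -0.13 for Atf4 (95% interval -0.56 to 0.31) to 0.57 for Sdf2l1 (-0.53 to 1.66). For Dnajb9 the interval was -0.39 to 0.68 and for Hspa5 -0.55 to 0.37. Herpud1, which differed by -0.34 in controls and -0.00083 in knockouts, had a difference of 0.34 (-0.06 to 0.74, edgeR adjusted p = 0.888).

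The wider pathway was described with 5 further lists of 108 genes, of which 106 were tested. After UVB 42 of the 106 rose and 13 fell in controls, and 48 rose and 8 fell in knockouts. Among all genes 17.7% were higher and 18% lower in controls, and 18.1% and 14.1% in knockouts. These shares are not matched to the lists for gene span, and the lists were chosen with earlier results of these data known. Tested genes spanning over 20 kb had median log2 fold changes of -0.25 in controls and -0.28 in knockouts. Those of at most 20 kb had 0.23 and 0.31. The part of gene span in the changes of these lists was not tested. ER translocation and export genes, which carry proteins into and out of the ER, gave 12 rises and 0 falls of 21 in each genotype, and 9 did not pass, with medians of 0.42 and 0.45. Of the 21 log2 fold changes 16 were positive in controls and 19 in knockouts. Without exposed control library 2 the control counts were 8 rises and 1 fall. Sec61a1, the pore of the translocon, rose 1.87-fold in controls (SE 0.13, edgeR adjusted p = 1.32e-05) and 1.96-fold in knockouts (SE 0.13, adjusted p = 8.2e-06). The translocon-associated subunit genes Ssr3 and Ssr1 rose 2.23-fold and 1.65-fold in controls and 2.46-fold and 1.75-fold in knockouts, and Ssr2 rose 1.44-fold and 1.88-fold. Kdelr3, a receptor that returns ER proteins from the Golgi, rose from 0.101 ± 0.0714 to 1.5 ± 0.484 CPM in controls (log2 fold change 3.82, SE 0.77, adjusted p = 0.000554). In knockouts Kdelr3 stood at 0.736 ± 0.433 CPM unexposed and 1.77 ± 0.636 CPM exposed and did not pass (1.26, SE 0.68, edgeR adjusted p = 0.178).

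ER-associated degradation genes, which extract and ubiquitinate misfolded proteins, gave 9 rises and 1 fall of 21 in controls and 12 rises and 1 fall in knockouts. That is 42.9% higher and 4.76% lower in controls and 57.1% and 4.76% in knockouts, beside the shares over all genes given above. The knockout fall was lost without library 2 or 4 of either knockout group. Selenok rose 2.83-fold and 2.73-fold in control and knockout epidermis (edgeR adjusted p = 2.21e-07 and 5.84e-07), and Syvn1, the ubiquitin ligase HRD1, rose 1.79-fold and 1.58-fold. Ubxn4 and Selenos rose 2.07-fold and 2.02-fold in controls and 1.58-fold and 1.70-fold in knockouts. Fam8a1 and Edem1 rose 1.9-fold and 1.86-fold in controls and 2.26-fold and 1.92-fold in knockouts. Chaperones and folding enzymes were mixed, with 5 rises and 4 falls of 23 in controls and 7 rises and 4 falls in knockouts. The control counts, 21.7% higher and 17.4% lower, are near the 17.7% and 18% of all genes. In knockouts the list gave 30.4% and 17.4%, against 18.1% and 14.1% of all genes. The lectin chaperone gene Calr rose 1.95-fold and 1.97-fold, and Sdf2, a paralogue of Sdf2l1, rose 1.79-fold and 1.78-fold. Sil1, another exchange factor for BiP, fell from 68.1 ± 4.05 to 29.0 ± 7.06 CPM in controls (log2 fold change -1.23, adjusted p = 3.51e-06) and from 101 ± 11.3 to 33.3 ± 3.48 CPM in knockouts (-1.59, adjusted p = 3.3e-07). Uggt1, which tests glycoprotein folding, fell by 0.76 in controls and by 0.49 in knockouts on the log2 scale, and the disulphide isomerase gene P4hb rose 1.58-fold and 1.63-fold. With 1 library left out, this list gave 4 to 6 rises and 3 to 6 falls in controls and 5 to 9 rises and 2 to 5 falls in knockouts, with 5 rises and 2 falls without exposed knockout library 4. Its knockout falls were 2 without unexposed knockout library 1 or 3 or exposed knockout library 3.

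The sensor list gave 3 rises and 6 falls of 12 in controls and 3 rises and 2 falls in knockouts, beside the shares over all genes given above. The control rises were 1 without unexposed control library 1, without exposed control library 2 or without the count filter, and the knockout falls were 1 without exposed knockout library 2 or 3. Atf6 fell by 0.59 in controls (SE 0.15, edgeR adjusted p = 0.00413) and by 0.88 in knockouts (SE 0.15, adjusted p = 0.000126). Eif2s1, which encodes eIF2α, rose 2.84-fold and 2.62-fold (adjusted p = 2.56e-07 and 1.06e-06). Eif2ak4, the amino acid sensor kinase GCN2, and Mbtps2, a protease that frees ATF6, fell by 1.49 and 0.76 in controls on the log2 scale. In knockouts Eif2ak4 fell by 1.05, and Mbtps2, at a log2 fold change of -0.41, did not pass (edgeR adjusted p = 0.117). Eif2ak3, which encodes PERK, and Atf6b rose 1.35-fold and 1.38-fold in controls (adjusted p = 0.0484 and 0.0276) and 1.68-fold and 1.59-fold in knockouts (0.00157 and 0.00258).

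Genes of the PERK-ATF4-CHOP arm and amino acid response gave 13 rises and 2 falls of 29 in controls and 14 rises and 1 fall in knockouts. That is 44.8% higher and 6.9% lower in controls and 48.3% and 3.45% in knockouts, beside the shares over all genes given above. With 1 library left out the falls were 0 to 3 in controls (0 without exposed library 3, and 1 without exposed library 1 or unexposed library 1 or 2) and 0 to 2 in knockouts (0 without exposed library 2 or unexposed library 1, 2 or 3, and 2 without unexposed library 4). Ppp1r15b, a constitutive regulatory subunit of the phosphatase that dephosphorylates eIF2α, rose 4.41-fold in controls and 3.51-fold in knockouts (edgeR adjusted p = 1.59e-07 and 1.54e-06). The death receptor gene Tnfrsf10b rose 5.70-fold and 5.41-fold, and Slc3a2, the heavy chain of amino acid transporters, 2.42-fold and 2.43-fold. Mthfd2, a mitochondrial folate enzyme, rose 3.06-fold and 2.36-fold, and the alanyl tRNA synthetase gene Aars 1.99-fold and 2.16-fold. Tnfrsf10b is also a p53 target, so this list is not made of ATF4 targets alone.

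**Figure D5:**
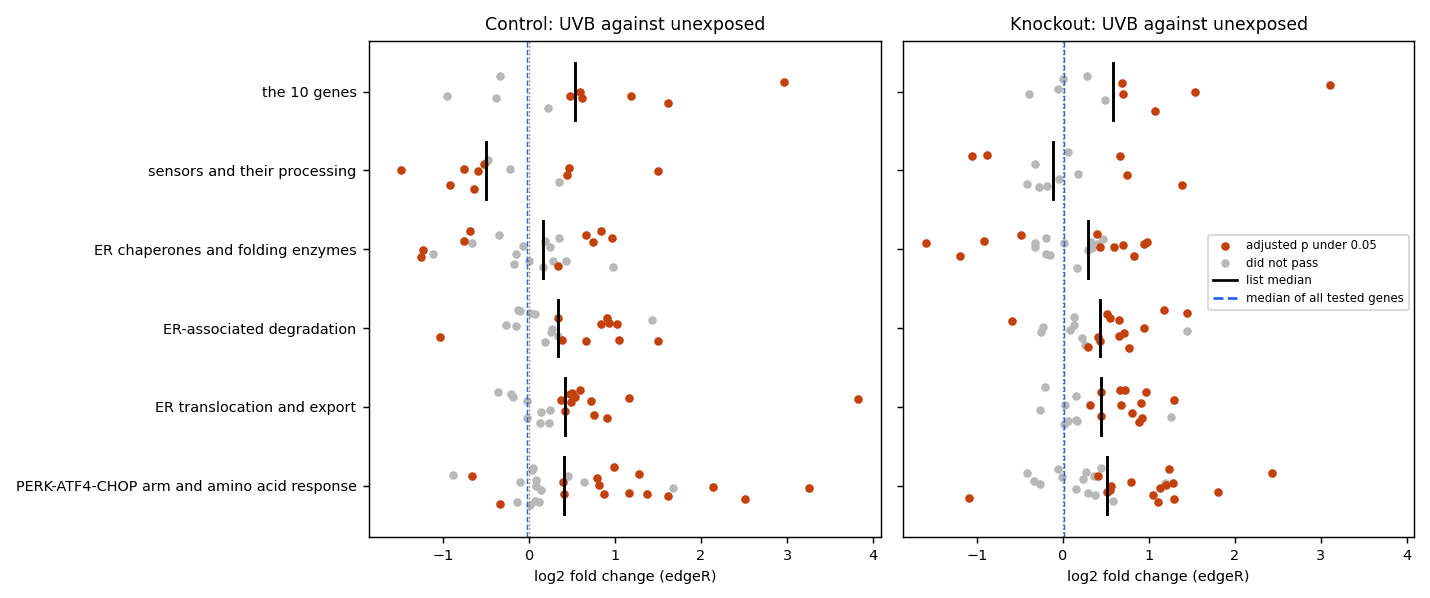
Log2 fold change after UVB of every tested gene of the 6 lists in control (left) and knockout (right) epidermis, 1 point a gene, orange where the adjusted p was under 0.05, with the list median (black bar) and the median of all tested genes (blue dashed line). The ER translocation and export list has 12 orange points in each genotype, all above 0, and the sensor list of controls has 3 above and 6 below.

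Between genotypes, 2 of the 106 were higher in unexposed knockouts and 0 lower, beside 2.1% of all genes tested, and after UVB 3 were higher and 1 lower, beside 4.68%. Both counts are near the share over all genes. Eif2ak2, which encodes the double-stranded RNA sensor PKR and is also an interferon-stimulated gene, was 2.26-fold higher unexposed (SE 0.27, edgeR adjusted p = 0.0292) and 3.79-fold higher after UVB (SE 0.28, adjusted p = 0.000649). The unexposed call ended without the count filter, or without any 1 of the 4 control libraries or of knockout libraries 1 to 3 (adjusted p up to 0.110). Atf3, a stress transcription factor gene, was 4.41-fold higher in unexposed knockouts (SE 0.38, adjusted p = 0.00790). Its call ended with limma voom (0.0516).

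After UVB Cebpg, which encodes a partner of ATF4 in the C/EBP family, was 1.56-fold higher in knockouts, at 91.6 ± 5.53 against 58.7 ± 8.51 CPM (edgeR adjusted p = 0.00268). Shmt2, a serine and glycine enzyme of mitochondria, was 1.6-fold higher (adjusted p = 0.0236), and Selenos, a membrane selenoprotein of ER degradation, was lower by 0.62 on the log2 scale (log2 fold change -0.62, adjusted p = 0.0239). The Shmt2 call ended without exposed control library 1, 3 or 4 or exposed knockout library 1 or 2 (adjusted p up to 0.0861), and the Selenos call without exposed control library 2 or 4 or exposed knockout library 1, 2 or 3 (up to 0.0834). Genes with the smallest p in lists without a call were Sil1 unexposed (log2 fold change 0.56, adjusted p = 0.0596), Ube2g2 unexposed (-0.45, 0.107), Kdelr3 unexposed (2.80, 0.0554), Ppib after UVB (0.28, 0.126) and Sec62 after UVB (-0.53, 0.0767). With DESeq2, Sil1, Kdelr3 and Sec62 passed (adjusted p = 0.0170, 0.000515 and 0.0304). For the difference between the UVB responses they were Traf2 (0.40, adjusted p = 0.863), Dnajc10 (0.50, 0.880), Ubxn4 (-0.39, 0.880), Kdelr3 (-2.56, 0.787) and Atf3 (-2.20, 0.504, and 0.00595 with DESeq2).

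The ERSE was then read against all genes that hold it. Of the 37 gene symbols with an exact match, 20 were tested: 5 rose and 1 fell after UVB in controls, and 4 rose and 2 fell in knockouts, which are 25% and 20% higher against 18.9% and 19.7% among all 12379 tested genes with a window. The falls were 5% and 10%, against 19.9% and 15.8% of those genes. Hspa5, Calr, Syvn1 and Canx rose in both genotypes, and Creld2 passed in controls only. Of these, Hspa5 and Creld2 are among the 10 genes. Pan2 fell in both genotypes (log2 fold change -0.32, edgeR adjusted p = 0.0445, and -0.39, 0.0173), and Adcy3 fell in knockouts (-0.53, 0.0131). Hsp90b1 (log2 fold change -0.15, edgeR adjusted p = 0.393, in controls and -0.32, 0.0541, in knockouts), Dnajc3 (-0.35, 0.0686, and -0.32, 0.102) and Pdia6 (0.43, 0.0738, and 0.33, 0.184) hold the same element and did not pass. Genes with the UPRE rose in 23.2% of 125 cases in controls, and those with the amino acid response element in 17.0% of 370. The letters of the ERSE stood before genes that rose, genes that fell and genes that did not pass.

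By likeness of pattern, the 6 genes outside the 10 with the highest Pearson correlation to the mean standardized level of the 8 genes other than Atf4 and Trib3, over the 16 libraries and among 13183 genes of at least 1 CPM, were Ddx1 (0.939), Hdlbp (0.928), Slc25a5 (0.908), Kansl2 (0.903), Bccip (0.899) and Itpripl1 (0.896). The libraries share group and depth, so these values are a description. Ddx1, an RNA helicase gene, stood at mean levels of 45.0 and 45.5 CPM in unexposed controls and knockouts and 58.0 and 67.9 CPM in exposed ones. The mean over the 8 genes includes Herpud1, Sdf2l1 and Pdia4, which did not pass.

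Some markers of other cells moved with UVB beside these genes. The summed level of 6 plasma and B cell markers, a lineage with a large ER, was 3.90 to 5.66 CPM in unexposed and 11.5 to 21.3 CPM in exposed controls, and 4.31 to 9.06 and 10.4 to 13.1 CPM in knockouts. Of that list Cd79a rose in both genotypes, from a mean of 0.0691 to 10.2 CPM in controls and from 0.304 to 6.44 CPM in knockouts, and it made up most of the difference in the sum. Ighm averaged 1.74 and 3.77 CPM in unexposed and exposed controls and 4.12 and 4.09 CPM in knockouts. Igkc had 0 counts in every library, Jchain averaged 0.115 CPM in unexposed and 0.0576 CPM in exposed controls, and Mzb1 averaged 2.86 and 0.997 CPM in controls and 2.01 and 1.02 CPM in knockouts. The 6 monocyte, macrophage and neutrophil markers, which include S100a8 and S100a9 that stressed keratinocytes also make, summed to 71.5 to 232 CPM unexposed and 669 to 1080 CPM exposed in controls, with 2 of 5 tested members higher. In knockouts they summed to 95 to 187 and 293 to 554 CPM. S100a8 and S100a9 made up most of the difference in these sums. In controls they averaged 55.6 and 62.5 CPM unexposed and 367 and 488 CPM exposed, and in knockouts 46.7 and 60.4 CPM and 167 and 208 CPM. Csf1r averaged 12.0 and 13.1 CPM in unexposed and exposed controls, Lyz2 1.12 and 2.47 CPM, and Adgre1 3.35 and 1.99 CPM. The 7 sebocyte markers summed to 313 to 489 and 297 to 1280 CPM in controls and to 227 to 333 and 242 to 820 CPM in knockouts. Of the 5 basal keratinocyte markers 3 fell in controls and 1 in knockouts, and of 6 tested sebocyte markers 1 and 2 rose. Krt14, the highest of the basal list, went the other way without a call. It averaged 916 and 1730 CPM in unexposed and exposed controls and 2590 and 4170 CPM in knockouts. After UVB 1 of 5 Langerhans and dendritic cell markers and 1 of 5 melanocyte markers rose in each genotype. Of all genes tested, 17.7% were higher and 18% lower after UVB in controls, and 18.1% and 14.1% in knockouts. Between genotypes after UVB, 3 of 5 basal keratinocyte and 3 of 5 Langerhans and dendritic cell markers were higher in knockouts, beside 2.36% of all genes. Cd74 averaged 330 CPM in exposed knockouts against 170 CPM in exposed controls. Epcam, of the same list, went the other way without a call, at 300 against 385 CPM. The part of these cells in the changes of the 10 genes was not tested.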

How the data were processed

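RNA was sequenced from epidermis in 16 libraries. Libraries were made with a directional kit per the labels' protocols. The deposited values are raw counts per Ensembl gene, and the submitters' processing notes name FastQC, STAR, HTSeq and DESeq2. Not given in the sources used here were their versions, the build, the annotation and the strand setting. Columns were joined to samples by the library name in the titles. Symbols, exon lengths and overlaps came from GENCODE M21 (GRCm38), where 49326 of 49585 IDs matched. Of the 10 genes, Dnajb9 and Pdia4 shared 14 exon bases each with an annotated miRNA, and the others none with another gene. Cebpb shared 312 of 1504 with Tmem189. Replicate numbers follow accession order and pair nothing. Promoter windows are RefSeq's (GRCm38.p6).

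edgeR 4.0.16 in R 4.3.3 (filterByExpr, TMM, robust quasi-likelihood F tests, 1 mean per group, all libraries) was fitted to the whole table, and Benjamini-Hochberg adjustment covered the 17741 genes tested, with a threshold of 0.05. SE is the log2 fold change over the square root of F, and intervals are 95%. Members and lists were chosen with earlier results of these data known. Named pathway genes were, per list and comparison, up to 4 past the threshold with the smallest p, or the 1 with the smallest p. The fit was tested on simulated counts with equal numbers of 2-fold and 4-fold changes. It recovered 46 of the 2-fold and 90 of the 4-fold changes for unexposed knockout against control, and 48 and 85 after UVB. For the difference between responses it recovered 25 and 68, so 2-fold changes were often missed. Replicates differed by more than counting error (lowest chi-square per degree of freedom 41.75). Alternatives were RLE and upper-quartile scaling, no count filter, DESeq2 1.42.0, limma 3.58.1 voom, 2-group fits and each library left out. Likeness used log2(CPM + 0.5) and named the 6 genes with the highest correlation.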

Additional observations from a re-analysis of the deposited data

Results flagged for a closer look

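Xbp1 in unexposed knockout library 3 stood apart from the rest of its group: it read 175 CPM, while the other 3 libraries read 128 to 131 CPM. It was the 1 case among 40 groups of 4 libraries. Chance alone flags about 1 in 20 such groups, so 1 case is not more than chance gives. The call of Xbp1 after UVB in knockouts held in all 14 alternatives (adjusted p up to 0.0132).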

How the results depend on the processing

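Over the alternatives, 747 of 770 refitted values of the 10 genes kept their side of the threshold, 8 lost and 15 gained a call, and 0 called values changed sign. Of the values without a call, 58 changed sign. Dnajb9, Hspa5 and Atf4 were called higher after UVB under each of 14 alternatives in both genotypes, and so were Xbp1 and Hyou1 in knockouts. The number of the 10 genes called after UVB was 5 to 8 in controls and 5 to 6 in knockouts. Without exposed control library 2 it was 3 higher (Dnajb9, Hspa5 and Atf4) and 3 lower (Herpud1, Sdf2l1 and Pdia4). The cause was not tested. In the genotype comparisons and the difference between responses it was 0 under every alternative run. Counts over all genes moved more. Unexposed knockout against control gave 373 (171 higher and 202 lower; 180 and 136 with upper-quartile scaling), and DESeq2 799, with 134 to 435 when 1 library was left out. After UVB it gave 830, and DESeq2 1664, with 419 to 1356 when 1 library was left out. The difference between responses gave 0, and 2 without the count filter, 58 with DESeq2 and 0 to 2 when 1 library was left out. Limma voom moved the median of all genes for UVB in controls from -0.025 to -0.130. Levels without TMM differed from the TMM level by more than 1 SD for Herpud1 (54.1 CPM) and Sdf2l1 (6.89 CPM) in unexposed knockouts. The alternatives for pathway lists were chosen after seeing the data. No paired analysis was possible because the labels carry no replicate numbers shared between groups.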
